A study of Mus musculus with 4 samples.

Results

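Lyve1- MHC class II high macrophages are complement-expressing macrophages that lack the hyaluronan receptor gene Lyve1 and carry a high level of the antigen-presenting gene H2-Aa. They were chosen by thresholds on the normalised values of single cells: C1qa, C1qb and C1qc (the subunits of complement C1q) each at 1.5 or more on the deposited natural-log scale, H2-Aa at 2 or more and Lyve1 at 0. At most 2 of the border macrophage genes Cd163, Folr2, Cbr2 and Cd209f and at most 2 of the microglial genes P2ry12, Tmem119, Gpr34, Olfml3, Crybb1 and Siglech could be above 0, and at most 2 of Gpnmb, Arg1, Fabp5 and Spp1, which mark infiltrating macrophages of an injured brain, at 1.5 or more. After a filter on cells (more than 1000 and fewer than 6000 detected genes, mitochondrial genes at most 7% of the expression), 812 of the 14586 remaining cells met the rule, out of 18969 barcodes in all. The values of these 19 genes chose the cells, so they are given as a description and support nothing.

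The study compared CD45+ (hematopoietic) cells of the dura mater, the outer layer of the meninges, with those of the brain in C57BL/6J mice aged 8 weeks, 3 days after photothrombotic injury (D3) or 3 days after sham operation (S3). In this injury, light activates the dye Rose Bengal through the skull and closes the blood vessels below it. All 4 libraries held CD45+ cells sorted by FACS and captured in droplets with a 3' kit: 1 of the brain at S3, 1 of the dura mater at S3, 1 of the brain at D3 and 1 of the dura mater at D3. The labels name the uninjured libraries only as CT, and these were taken as the S3 libraries of the study. How many mice each library pooled is not given in the sources used here, and with 1 library per condition no difference between conditions or tissues could be tested. Intervals beside such differences are exact Poisson or binomial 95% intervals that cover counting error only.

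Macrophages at the borders of the brain fall into cells with scavenger receptors such as Lyve1 and Mrc1 that line vessels, and cells with much MHC class II that present peptides to CD4+ T cells. MHC class II molecules are made of an alpha and a beta chain (H2-Aa with H2-Ab1, and H2-Eb1), are held by the invariant chain Cd74 on the way to the endosome, receive their peptide with the help of H2-DM, and are switched on together by the coactivator Ciita. Many border macrophages with high MHC class II are replaced from blood monocytes, which carry the chemokine receptor Ccr2.

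The libraries held 4734 barcodes in the brain at S3, 4795 in the dura mater at S3, 5925 in the brain at D3 and 3515 in the dura mater at D3, with 49003977 to 115154317 UMIs (unique molecular identifiers, 1 per captured transcript) each. Any pair of libraries shared 3 to 11 barcodes. The median member had 12633 UMIs in the brain at S3, 13028 in the dura mater at S3, 14361 in the brain at D3 and 16440 in the dura mater at D3. A level below is the UMIs of a gene summed over the members of a library, scaled to 1000000 of their UMIs (CPM). Free RNA was gauged from T cells (Cd3e and Cd3d detected) without the C1q genes, which held C1qa at 33.1 CPM in the brain at S3, 95.2 in the dura mater at S3, 76.9 in the brain at D3 and 65.1 in the dura mater at D3. Of all T cells, 9.48% to 34.6% per library also passed the C1q thresholds. The brain at D3 had the most free RNA of a macrophage gene: Apoe, which carries lipids, was at 7647 CPM in its T cells without C1q and at 389 to 697 in those of the other libraries.

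The members were 137 cells or 3.66% (exact interval 3.08 to 4.31) of the filtered cells of the brain at S3. They were 167 cells or 4.68% (4.01 to 5.42) in the dura mater at S3. They were 291 cells or 6.32% (5.64 to 7.07) in the brain at D3 and 217 cells or 8.13% (7.12 to 9.24) in the dura mater at D3. The share was thus higher at D3 than at S3 in both tissues, with intervals that did not overlap, and higher in the dura mater than in the brain at D3. Among cells that passed the C1q thresholds, the order was another: members were 14.2% in the brain at S3, 22.8% in the dura mater at S3, 12.4% in the brain at D3 and 20.9% in the dura mater at D3. The CD45 sort fixes the denominator of the first share, and the C1q-positive cells of the brain include microglia. With none of the 4 border genes detected the order of the tissues reversed at both times: the share of filtered cells was 2.69% in the brain and 2.21% in the dura mater at S3, and 5.19% and 3.67% at D3.

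Few cells lay near the threshold on H2-Aa. Between 1.8 and 2.0 on the natural-log scale, just outside, were 0 cells of the brain at S3, 3 of the dura mater at S3, 2 of the brain at D3 and 6 of the dura mater at D3 that met every other criterion. Between 2.0 and 2.2, just inside, were 1, 1, 6 and 2 members in the same order of libraries. A single Lyve1 UMI kept out 3, 7, 2 and 13 cells. The limit on microglial genes kept out more: 121, 65, 203 and 102 cells failed on it alone.

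The 6 marker genes of these cells were C1qa, H2-Aa, H2-Eb1, Axl (a receptor for dying cells), Slamf9 (a SLAM family surface receptor) and Lilra5 (a leukocyte immunoglobulin-like receptor). At least 4 of them were detected in 96.4% of members of the brain at S3, 91.6% of the dura mater at S3, 85.2% of the brain at D3 and 94.9% of the dura mater at D3. C1qa and H2-Aa were part of the rule, so every member held both and these shares are a description only. In Lyve1+ macrophages, chosen on C1qa but not on H2-Aa, the share was 21.1% to 51.9% per library. In Cd209a+ Flt3+ dendritic cells, chosen on H2-Aa and with low C1qa, it was 43.4% to 61.4%. C1qa was at 3769 CPM in members of the brain at S3, 4519 in the dura mater at S3, 3662 in the brain at D3 and 4147 in the dura mater at D3. Summed over 12 macrophage genes such as Csf1r and Cd68, the members held 16798 to 19692 CPM per library and the dendritic cells 4320 to 5689, so the members were macrophages by these genes in all 4 libraries. Adgre1, which encodes F4/80, was at 300.4 CPM in the brain at S3, 433 in the dura mater at S3, 229 in the brain at D3 and 423 in the dura mater at D3.

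**Figure D1:**
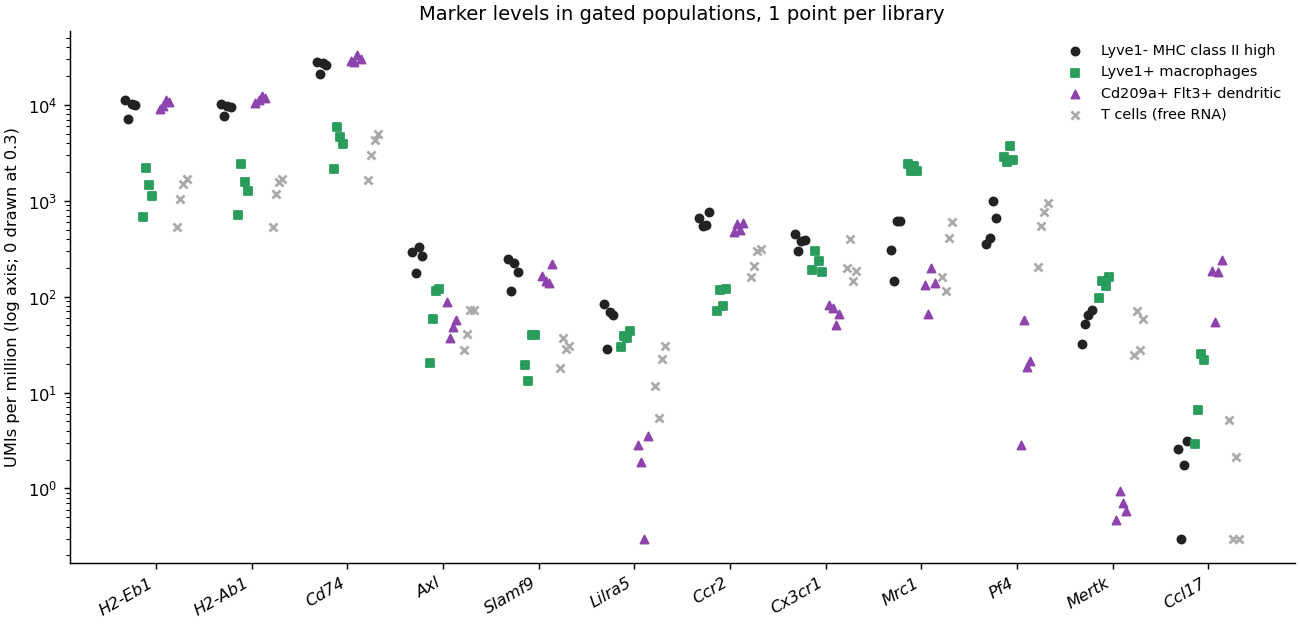
Levels of the marker genes and of genes of neighbouring cell types in CPM (log axis), 1 point per library, for the members, Lyve1+ macrophages and Cd209a+ Flt3+ dendritic cells, with all T cells as a reference for free RNA and values of 0 drawn at 0.3. H2-Eb1 lies between 7103 and 11072 in the members against 682 to 2207 in Lyve1+ macrophages, and Lilra5 between 28.7 and 84.2 against at most 3.52 in dendritic cells. Between members and Lyve1+ macrophages the difference of Lilra5 did not pass the test described below.

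Markers of other immune cells were also detected. UMIs of Cd3e, Cd3d, Cd79a or Cd79b, which encode parts of the T and B cell receptors, were found in 54 members of the brain at S3, 85 of the dura mater at S3, 64 of the brain at D3 and 83 of the dura mater at D3. Summed over 6 B cell genes, the members held 429 CPM in the brain at S3, 524 in the dura mater at S3, 142 in the brain at D3 and 292 in the dura mater at D3. Flt3 or Cd209a, which mark dendritic cells, had a UMI in 40, 35, 63 and 64 members in the same order. The 6 neutrophil genes summed to 3332, 10820, 2200 and 11153 CPM, and most of it sat in few cells: 7, 13, 6 and 14 members were above 20000 CPM of neutrophil genes, while the median member was at 184, 478, 186 and 527. The part of doublets and free RNA in these values was not tested.

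Ordered by their role in antigen presentation, the chains of MHC class II came first. H2-Aa, one of the genes that chose the cells, was at 10252 CPM in the brain at S3, 9994 in the dura mater at S3, 7451 in the brain at D3 and 9762 in the dura mater at D3. H2-Eb1 was at 11072, 10231, 7103 and 9952 CPM and H2-Ab1 at 10273, 9739, 7586 and 9454 in the same order. For each of these chains the brain at D3 was lowest and the other 3 libraries lay close together.

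The invariant chain Cd74 was at 28113 CPM in the brain at S3, 27253 in the dura mater at S3, 20842 in the brain at D3 and 26196 in the dura mater at D3. H2-DMb1, a chain of the peptide loader H2-DM, was at 899, 732, 585 and 753 CPM in the same order. Ciita was at 150.2, 156, 74.98 and 184 CPM. The chains, the chaperone, the loader and the coactivator were thus all lowest in the brain at D3. H2-DMb2, a second loader chain with far fewer UMIs, was at 42.6, 29.99, 14.8 and 28.9 CPM.

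The 100 bases before the annotated start of genes of the MHC class II pathway list were read for the Y box. This CCAAT motif (ATTGG on the other strand) is part of the conserved promoter module of MHC class II genes, so matches were likely beforehand. Of the 18 genes of the pathway list 13 were read, with promoters from the RefSeq table (GRCm38.p6). Of these 13 genes 10 held the motif in at least 1 entry, against 18.9% of all 32851 promoter windows. The other genes of the list, Cd74 among them, were not read, so these counts do not cover the whole list. A match describes letters and not a bound site, and a link to the levels in the brain at D3 was not tested. Lgmn, higher past the fold at D3 than at S3 in the brain, also held a match. H2-Aa (chr17:34287824-34287923, minus strand), H2-Eb1 (chr17:34305767-34305866, plus strand), H2-DMb1 (chr17:34153091-34153190, plus strand) and H2-DMb2 (chr17:34145149-34145248, plus strand) are shown 5′ to 3′ with the motif in capitals.
H2-Aa: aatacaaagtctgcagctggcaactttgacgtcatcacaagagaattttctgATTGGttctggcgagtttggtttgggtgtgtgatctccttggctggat
H2-Eb1: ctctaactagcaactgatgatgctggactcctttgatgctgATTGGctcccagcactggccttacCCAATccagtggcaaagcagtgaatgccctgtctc
H2-DMb1: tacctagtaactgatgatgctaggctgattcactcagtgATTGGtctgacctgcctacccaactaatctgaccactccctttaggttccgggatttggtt
H2-DMb2: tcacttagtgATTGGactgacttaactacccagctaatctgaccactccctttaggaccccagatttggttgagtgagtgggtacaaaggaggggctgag
The first base of the motif stood 48 bases before the start in H2-Aa, 59 and 35 in H2-Eb1, 61 in H2-DMb1 and 90 in H2-DMb2. No match was found in the windows of H2-DMa, Ctss and Ifi30.

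The monocyte chemokine receptor gene Ccr2 was at 659.6 CPM in members of the brain at S3, 552 in the dura mater at S3, 543 in the brain at D3 and 765 in the dura mater at D3. Cx3cr1, the fractalkine receptor of microglia and many tissue macrophages, was at 454, 379.9, 299 and 389 CPM. Both were detected in the same cell in 108 of 137 members (78.8%, interval 71.0 to 85.3) of the brain at S3 and 108 of 167 (64.7%, 56.9 to 71.9) of the dura mater at S3. At D3 both were detected in 233 of 291 members (80.1%, 75.01 to 84.5) of the brain and 158 of 217 (72.8%, 66.4 to 78.6) of the dura mater. In B cells without C1q, which should lack Cx3cr1, both were detected in 16 of 535, 16 of 784, 2 of 83 and 0 of 167 cells, or at most 2.99%, at a median of 3638 to 6003 UMIs against 12633 to 16440 in the members.

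Which genes set these cells apart from the Lyve1+ macrophages of the same libraries was tested next. Lyve1+ macrophages passed the same C1q thresholds and limits on microglial and infiltrating genes, carried Lyve1 and at least 2 of the 4 border genes, and were 71 cells of the brain at S3, 124 of the dura mater at S3, 82 of the brain at D3 and 239 of the dura mater at D3. UMIs were summed per library and population, and log2(CPM + 1) was fitted with limma with the library as a block over the 4 libraries. The p-values measure how the difference between populations within a library varied over the 4 libraries. Each library was another condition, so they measure no spread between replicates. A log2 difference on this scale understates the change of low genes. At a Benjamini-Hochberg adjusted p under 0.05, members were higher for 593 of 9222 genes (6.43%) and lower for 1728 (18.7%), with a median difference of -0.21 over all genes. Centred at that median, 980 genes were higher and 929 lower. Lyve1 and the other genes of the rule were not tested, and genes tied to them are described only: 9 of 15 MHC class II genes were higher and 14 of 15 border macrophage genes lower. Of the 4 marker genes tested, Axl, H2-Eb1 and Slamf9 were higher in the members and Lilra5 was not called.

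Ccr2 was at 71.3 to 119.6 CPM in Lyve1+ macrophages and higher in the members in 4 of 4 libraries (log2 difference 2.71 ± 0.15 (SE), limma adjusted p = 0.000184). Ccrl2, a chemerin-binding receptor, was higher by 2.03 ± 0.13 (adjusted p = 0.000203) and Cx3cr1 by 0.76 ± 0.20 (adjusted p = 0.0273, higher in 3 of 4 libraries). Cx3cr1 lost its call without the brain at S3 (0.59), the dura mater at S3 (0.78) or the dura mater at D3 (0.64). Of 7 chemokine receptors 4 were higher and 1, Ccr1, was lower. Of the 11 genes of the monocyte origin list 5 were higher (Ccr2, Ms4a4c, Plac8, S100a4 and Vim), and Chil3 was lower.

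Of 17 tested genes of the inflammatory cytokine list 7 were higher in the members and 0 lower. The higher ones were Il1a, Il1b, Il6 and Tnfsf13b, and also Nfkbia, Nlrp3 and Tnfaip3, which do not encode cytokines. Il1b, which encodes interleukin-1 beta, was at 1930 CPM in the brain at S3, 1297 in the dura mater at S3, 5131 in the brain at D3 and 2129 in the dura mater at D3, against 1172, 516, 1031 and 608 in Lyve1+ macrophages (log2 difference 1.54 ± 0.23, limma adjusted p = 0.00307). Il1a was higher by 2.35 ± 0.42 (adjusted p = 0.00692). Of 19 chemokines 7 were higher, among them Cxcl16 and Cxcl10 (1.99 ± 0.23, adjusted p = 0.00132), which attract T cells. The 6 that were lower were Ccl2, Ccl7, Ccl8, Ccl12, Ccl17 and Pf4, and Ccl17 lost its call without the dura mater at S3 (-1.84) or the brain at D3 (-1.96).

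The iron exporter Slc40a1 was at 5.60 to 17.8 CPM in the members and at 145 to 226 in Lyve1+ macrophages (log2 difference -4.00 ± 0.19, limma adjusted p = 0.000146), and 5 of 9 heme and iron genes were lower and 0 higher. Of 14 efferocytosis genes 7 were lower and 4 higher. The lower ones were the receptor Mertk (-1.29 ± 0.14, adjusted p = 0.000913), Cd36, Msr1 and Pros1, and also Gas6, Stab1 and Timd4, which belong to the border macrophage list and are described only. The higher ones were Axl, of the same receptor family as Mertk (2.01 ± 0.39, adjusted p = 0.00934), Itgav, Itgb5 and Lrp1. The mannose receptor Mrc1 and the scavenger receptor Stab1, both of the border macrophage list, differed by -2.60 and -2.82. Of 25 transcription factors 7 were higher, among them Batf3, Id3 and Runx3, and 6 lower, among them Klf4. Of 14 cell cycle genes and 10 hypoxia and glycolysis genes 0 were called in either direction.

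By the rule of the largest differences, the higher genes were Lyz1, F11r, Cxcl9, Tnip3, H2-Eb1, Clec4b1, Sirpb1c, Slamf9, Mmp13 and H2-Ab1, from 3.71 to 2.77 on the log2 scale. Few cells carried some of these: 97.2% of the Cxcl9 UMIs of the dura mater at D3 sat in 5 of its members, and Mmp13 was detected in 9 to 14 members per library. F11r, a junctional adhesion molecule, was detected in 37.7% to 68.6% of members. The lower genes were Cd209g, Colec12, Ednrb, Fcna, C2, Pla2g2d, Egfl7, Tln2, Ccl24 and Tslp, from -5.86 to -4.27.

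**Figure D2:**
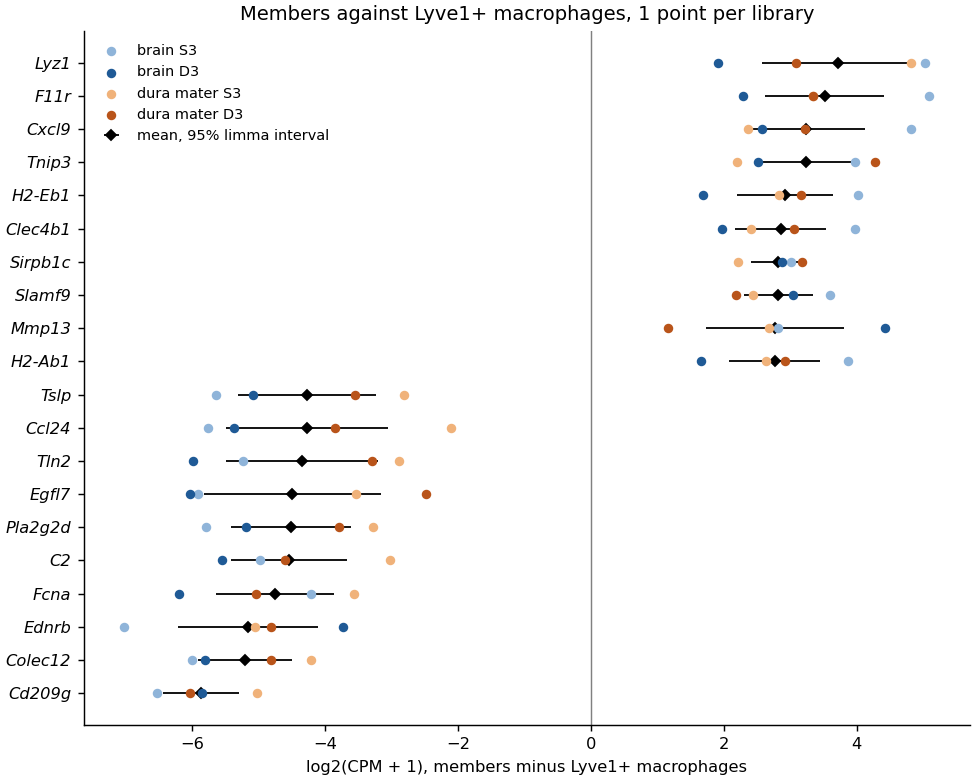
Log2 difference (members minus Lyve1+ macrophages) of the genes with the largest called differences, 1 point per library. H2-Eb1 averages 2.92 and Cd209g -5.86. The same sign in all 4 libraries was a condition for choosing these genes and is not a result.

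The neutrophil genes S100a8, S100a9, Retnlg, Ly6g and Camp were also lower in the members (5 of 6), and they summed to 19953 to 28118 CPM in Lyve1+ macrophages. Without cells above 20000 CPM of neutrophil genes, chosen after seeing the data, 0 of 5 were called. That setting takes out cells by the level of these same genes, so it cannot decide whether the difference holds. Against the 8, 36, 13 and 66 Lyve1+ macrophages that also had H2-Aa at 2 or more, 295 genes were called, among them 2 of the 15 MHC class II genes and 14 border macrophage genes, and Cxcl9, F11r, Tnip3, H2-Eb1 and H2-Ab1 lost their calls.

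Cd209a+ Flt3+ dendritic cells, which also present antigen on MHC class II, were the second comparison (108, 145, 129 and 83 cells). They were chosen with H2-Aa at 2 or more and the C1q genes each under 1.5, so a like level of MHC class II is partly set by the choice of both populations and is read as a description. Members were higher for 1513 of 9056 genes (16.7%) and lower for 1251 (13.8%), with a median of 0.04 over all genes. H2-Eb1 was at 9060 to 11076 CPM in the dendritic cells and differed by -0.09 ± 0.11 (95% interval -0.34 to 0.15, limma adjusted p = 0.56), and Cd74 by -0.22 ± 0.08 (-0.40 to -0.04, adjusted p = 0.0676). H2-DMb2 was lower in the members (-2.36 ± 0.20, adjusted p = 4.18e-05), as was H2-Oa (-3.38 ± 0.14, adjusted p = 1.54e-06), part of an inhibitor of H2-DM. Of 15 MHC class II genes 6 were lower and 2 higher.

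Of 12 macrophage genes 11 were higher in the members than in the dendritic cells and 0 lower. Adgre1 differed by 3.35 ± 0.09 (limma adjusted p = 2.57e-07), Cx3cr1 by 2.47 ± 0.14 (adjusted p = 4.79e-06) and Trem2, a lipid-sensing receptor gene, by 4.73 ± 0.32 (adjusted p = 1.29e-05). Axl (2.22 ± 0.15, adjusted p = 1.16e-05) and Lilra5 (4.45 ± 0.39, adjusted p = 4.94e-05) were higher, while Ccr2 (0.24 ± 0.10, interval 0.01 to 0.47, adjusted p = 0.11) and Slamf9 (0.17 ± 0.17, interval -0.22 to 0.56, adjusted p = 0.5) did not pass the test. Of 20 interferon-stimulated genes 17 were higher and 1, Ifitm3, was lower. Of 14 cell cycle genes 11 were lower and 0 higher. Signs of handling and of other cells moved with the group. Dissociation stress genes were higher for 10 of 12 and summed to 12910 to 22081 CPM in the members and 10597 to 12775 in the dendritic cells. T cell genes were higher for 4 of 6 (median difference 2.34) and summed to 46.8 to 207 CPM in the members and 2.35 to 75.6 in the dendritic cells. Their part in these differences was not tested.

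The dendritic cell transcription factor genes Zbtb46 (-2.58 ± 0.23, limma adjusted p = 5.36e-05) and Irf4 (-1.80 ± 0.26, adjusted p = 0.000883) were lower in 4 of 4 libraries. Ccl17, a T cell chemoattractant of dendritic cells, was at 0 to 3.09 CPM in the members and 54.0 to 239 in the dendritic cells. The genes with the largest called differences were Ccl12, Retnla, Slco2b1, Ms4a7, Apoe, C3ar1, Mertk, Pf4, Mmp13 and Cxcl1, from 6.37 to 4.91 higher, and Ccl17, Cd209d, Cd7, Klrd1, H2-Oa, Siglecg, Ly6d, Bcl11a, Lmo1 and Kmo, from -5.85 to -2.68. Retnla sat in few cells: 14, 7, 3 and 2 members of the brain at S3, dura mater at S3, brain at D3 and dura mater at D3.

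The question of what injury changed in these cells was put first to the dura mater. A gene was counted past the fold where the ratio of its levels was at least 2 and the interval did not include 1, with 20 UMIs or more together. Of 9952 genes 145 (1.46%) were higher at D3 than at S3 and 141 (1.42%) lower, with a median log2 ratio of 0.00462. The dura mater at S3 also serves in the comparison with the brain at S3, and each of the 4 libraries serves in 2 comparisons.

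Of 14 cell cycle genes 3 (Mki67, Birc5 and Ube2c) were higher past the fold and 0 lower, against 1.46% of all genes higher. Their median log2 ratio was 0.73. Mki67 was at 23.04 CPM at S3 and 58.9 at D3 (log2 ratio 1.35, interval 0.91 to 1.82). Members with at least 7 of the 14 genes were 9 of 167 (5.39%, interval 2.49 to 9.98) at S3 and 16 of 217 (7.37%, 4.27 to 11.7) at D3, which did not differ beyond counting error. Without the 5% of members that held most UMIs of each gene, an alternative added after seeing the data, 1 of 8 cell cycle genes was past the fold (median 0.23). Cycling members were few and are taken out by construction there, so this setting cannot decide whether the difference holds.

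The aryl hydrocarbon receptor gene Ahr had 17.8 CPM in the S3 and 52.5 in the D3 members (log2 ratio 1.56, interval 1.06 to 2.08), while T cells without C1q held 34.9 and 48.2. Tgm2, a transglutaminase, went from 21.3 to 62.0 CPM (1.54, 1.09 to 2.02), and its UMIs were in 11.4% of members at S3 and 34.1% at D3. T cells without C1q held Tgm2 at 0.602 and 8.03 CPM. Cxcl1, a neutrophil chemoattractant, went from 36.1 to 105 CPM (1.54, 1.19 to 1.90). Ccr1 went from 49.6 to 106 CPM (1.09, 0.78 to 1.41) and Il1b from 1297 to 2129 (0.71, 0.65 to 0.78), the latter below the fold. The other genes of the rule of the largest ratios were Mefv, Lockd, Flrt3, Cenpf and Ms4a8a, besides Birc5 and Ube2c. Without the 5% of members with most UMIs of each gene, Flrt3 (0.11), Lockd (0.37), Ube2c (1.11) and Birc5 (2.69) lost their calls, as did Flrt3 with none of the 4 border genes detected (0.79).

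Lpl, lipoprotein lipase, was lower at D3 (187 to 43.8 CPM, log2 ratio -2.09, interval -2.37 to -1.83), as was Ccl24, an eosinophil chemoattractant (82.6 to 16.3 CPM, -2.34, -2.79 to -1.91). With none of the 4 border genes detected Ccl24 was at -0.43 and lost its call. Cd274, which encodes PD-L1, went from 27.8 to 7.58 CPM (-1.88, -2.58 to -1.21). Saa3 and Retnla had the largest ratios, but 2682 UMIs of Saa3 sat in 2 members and 611 of Retnla in 7 members of the dura mater at S3. Iglc2, Ebf1, Ly6d and Igkc are genes of B cells, Dnase1l3 and Mmp13 completed the rule, and 4 of 6 B cell genes were lower past the fold. Without the 5% of members with most UMIs of each gene Iglc2, Ebf1, Ly6d, Cd79a and Dnase1l3 lost their calls, and Dnase1l3 also with none of the border genes. Members with a UMI of Cd3e, Cd3d, Cd79a or Cd79b were 85 of 167 at S3 and 83 of 217 at D3, and their part in these ratios was not tested. Interferon-stimulated genes were past the fold for 0 of 20 (median -0.30) and hypoxia and glycolysis genes for 0 of 10 (median 0.17). MHC class II genes were past it for 1 higher (Rfx5) and 1 lower (H2-Eb2) of 16 (median -0.04).

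In the brain, 362 of 9518 genes (3.8%) were higher at D3 and 650 (6.83%) lower, with a median log2 ratio of -0.06. Hypoxia and glycolysis genes stood out in count: 8 of 11 were past the fold higher and 0 lower (median 1.73). Vegfa, a growth factor of blood vessels, was at 6.76 CPM at S3 and 185 at D3 (log2 ratio 4.78, interval 3.99 to 5.69), and at 11.7 and 14.9 in the dura mater. Vegfa UMIs were in 51.2% of members of the brain at D3 and 2.92% at S3, against 20.8% and 2.28% of T cells, whose level without C1q was 47.2 CPM at D3. At 2000 UMIs per cell the shares at D3 were 22.7% of members and 3.72% of T cells.

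The glycolytic genes Pgk1 (69.1 to 318.5 CPM, log2 ratio 2.204, interval 1.95 to 2.47) and Ldha (174 to 509.9 CPM, 1.55, 1.39 to 1.72) were higher as well. T cells without C1q held Pgk1 at 157 and 305 CPM and Ldha at 333 and 473. Both lay at D3 close to the T cell level, and at S3 below it.

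Matrix and growth factor genes were higher past the fold for 7 of 15 and lower for 2 (Pdgfb and Igf1). Fibronectin, Fn1, went from 79.0 to 537 CPM (log2 ratio 2.76, interval 2.53 to 3.01), Thbs1, thrombospondin, from 89.9 to 834 (3.21, 2.99 to 3.44) and Ecm1 from 8.84 to 189.6 (4.42, 3.74 to 5.21). In T cells without C1q of the brain at D3 these were at 159, 246 and 79.5 CPM. Igf1 went from 33.3 to 8.28 CPM (-2.01, -2.63 to -1.40), and lost its call without the 5% of members with most UMIs (-2.22).

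Lipid and damage-associated genes were higher for 7 of 15 and lower for 1, Lpl. The lysosomal proteases Ctsd (420 to 2502 CPM, log2 ratio 2.57, interval 2.47 to 2.68) and Ctsl (89.4 to 636, 2.83, 2.61 to 3.06) and the lipid droplet gene Plin2 (186 to 703, 1.92, 1.76 to 2.08) were among them. Il1b went from 1930 to 5131 CPM (1.41, 1.36 to 1.46), and from 69.3% to 92.1% of members with a UMI, beside 631 CPM in T cells without C1q at D3. Its median cell was at 167 CPM at S3 and 4158 at D3.

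Interferon-stimulated genes were higher past the fold for 7 of 20 and lower for 1, Irf1 (median 0.89). Isg15 went from 206 to 449 CPM (log2 ratio 1.12, interval 0.97 to 1.28) and Irf7, a transcription factor of the interferon response, from 98.2 to 239 (1.28, 1.06 to 1.51). Isg15 lost its call with none of the 4 border genes detected (0.84) and without the 5% of members with most UMIs (0.999). Of the monocyte origin genes, Plac8 (109.7 to 373 CPM, 1.77, 1.56 to 1.98) and Ms4a4c (111 to 332, 1.58, 1.38 to 1.798) were higher with Chil3 and Ly6i. Ifitm1 went from 15.1 to 256 CPM, beside 167 in T cells without C1q at D3, and 35.6% of its UMIs sat in 5 members.

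MHC class II genes were lower past the fold for 4 of 15 (H2-DMb2, H2-Ob, Ciita and Rfx5) and higher for 1 (Lgmn), with a median of -0.62. Ciita had a log2 ratio of -1.002 (interval -1.23 to -0.77) and H2-Eb1, below the fold, of -0.64 (-0.67 to -0.62). Slamf9 (-1.08, -1.27 to -0.90) and Lilra5 (-1.56, -1.90 to -1.21) were lower past the fold, and Axl had -0.72 (-0.88 to -0.57). Dissociation stress genes were lower for 5 of 12, and Hspa1b went from 1559 to 242 CPM. Cell cycle genes were lower for 9 of 13, and at least 7 of 14 were detected in 8 of 137 members (5.84%, interval 2.55 to 11.2) at S3 and 3 of 291 (1.03%, 0.213 to 2.98) at D3. Without the 5% of members with most UMIs of each gene 0 of 5 cell cycle genes were past the fold. That setting takes out cycling members by construction, so it cannot decide whether the difference holds.

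B cell genes (5 of 5) and T cell genes (6 of 6) were lower at D3, and Iglc1, at 0 UMIs at D3 and 95 at S3 in 3 members, was at least 73.5-fold lower against the floor of 3 UMIs. Iglc2, Cd79a, Ly6d, Retnla, Hspb1, Cyr61, Ear2 and Cxcl9 completed the largest ratios downward. Timp1, Igfbp6, Prtn3, Nxpe5, Nr1h3, Gpr162 and Mmp19 completed them upward, from 5.81 to 3.74 with Vegfa, Ecm1 and Ifitm1, and each of these 7 had at most 3 UMIs at S3. Iglc2, Cd79a, Ly6d, Retnla, Cyr61 and Mmp19 lost their calls without the 5% of members with most UMIs of each gene.

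**Figure D3:**
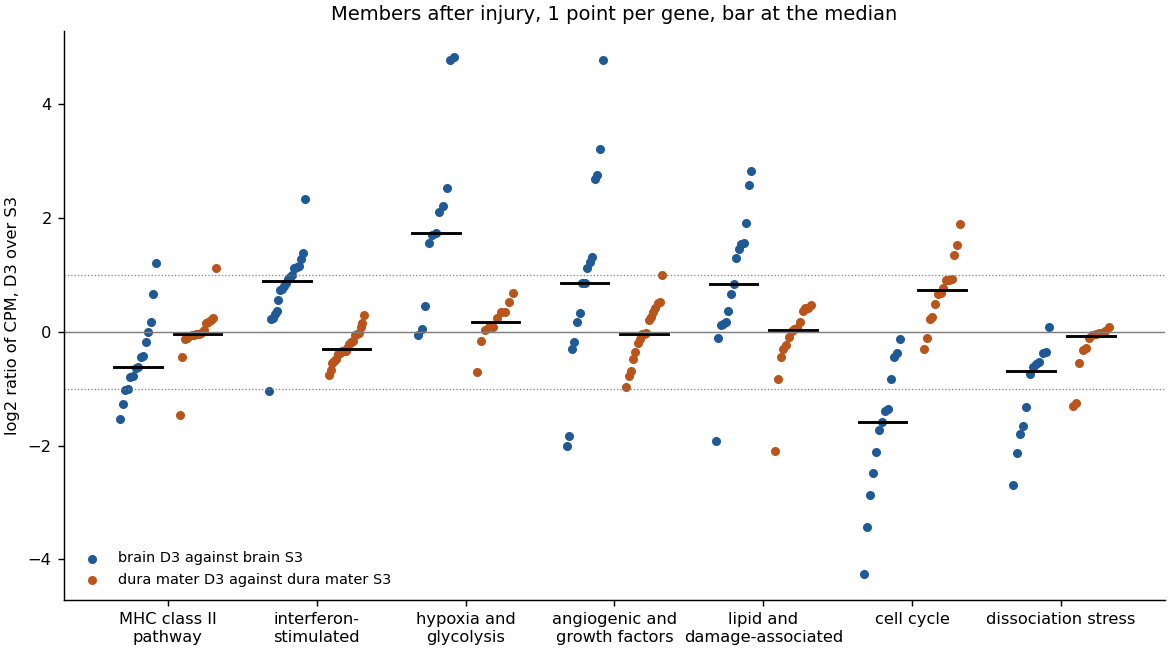
Log2 ratio of D3 to S3 in members of the brain and of the dura mater for 7 gene lists, 1 point per gene, with the list median as a bar and dotted lines at 2-fold. Hypoxia and glycolysis genes have a median of 1.73 in the brain and 0.17 in the dura mater, and cell cycle genes of -1.58 and 0.73.

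The rule allowed up to 2 of Gpnmb, Arg1, Fabp5 and Spp1 at 1.5 or more, and the members of the brain at D3 used it most: 189 had 0, 67 had 1 and 35 had 2 of these genes, while 132, 161 and 210 members had 0 in the brain at S3, the dura mater at S3 and the dura mater at D3. H2-Eb1 was at 9323 CPM in the 189 cells with 0, 4745 in those with 1 and 2976 in those with 2, against 11041 in cells with 0 of the brain at S3. Slamf9 was at 148, 87.9 and 42.7 CPM, against 237.6 in cells with 0 of the brain at S3, so that it was below the fold among cells with 0. Ccr2 was at 607, 557 and 289. The members with more infiltrating genes thus had less of the genes that marked the group.

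Vegfa was at 132 CPM in cells with 0 infiltrating genes of the brain at D3, 258 in those with 1 and 256 in those with 2, against 3.74 in cells with 0 at S3. Fn1 was at 278, 913 and 854 CPM and Trem2 at 500, 795 and 996, while Il1b was at 5344, 5206 and 4253 and Isg15 at 499, 397 and 354. In cells with 0 infiltrating genes, an alternative added after seeing the data, hypoxia and glycolysis genes were higher past the fold for 7 of 10 (median 1.43), interferon-stimulated genes for 9 of 20 (median 0.87), and MHC class II genes were lower for 2 of 15 (median -0.24).

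**Figure D4:**
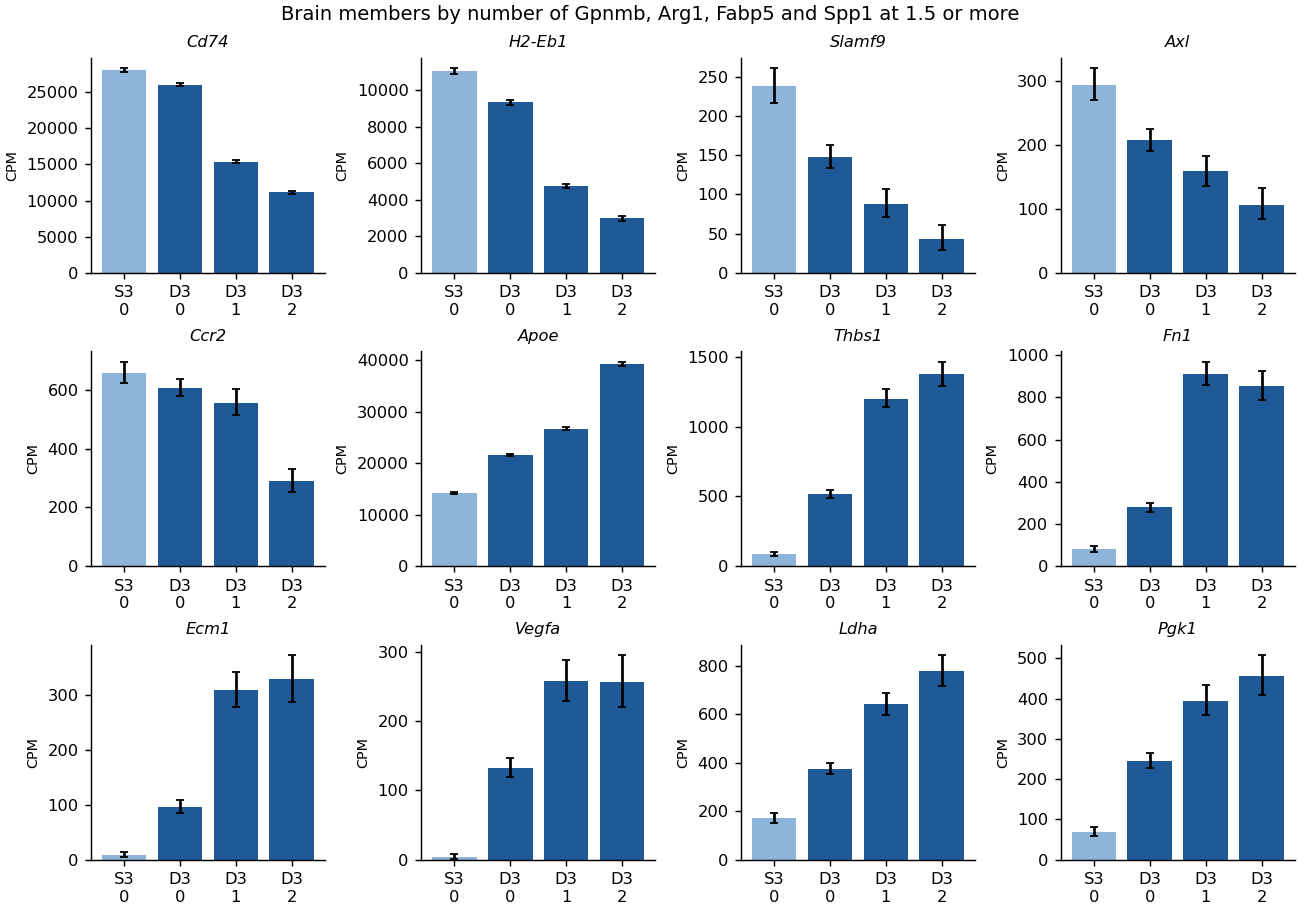
Levels (CPM) in members of the brain at S3 with 0 and of the brain at D3 with 0, 1 or 2 of the genes Gpnmb, Arg1, Fabp5 and Spp1 at 1.5 or more, with exact Poisson 95% intervals. H2-Eb1 runs from 11041 to 2976, and Vegfa from 3.74 to 132 and above.

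Between tissues at S3, 436 of 9280 genes (4.7%) were higher in the dura mater and 139 (1.5%) lower, with a median log2 ratio of 0.16. Centred at that median, 277 were higher and 209 lower. Border macrophage genes were higher past the fold for 9 of 13 and lower for 0 (median 1.12). Mrc1 was at 305 CPM in the brain and 620 in the dura mater (log2 ratio 1.03, interval 0.89 to 1.17), Stab1 at 150.2 and 317 (1.08, 0.88 to 1.28) and Pf4, platelet factor 4, at 354 and 982 (1.47, 1.35 to 1.596). Members with 0 of the 4 border genes of the rule were 101 of 137 in the brain and 79 of 167 in the dura mater, so the rule itself let in more cells with border genes in the dura mater. In cells with 0 of these genes the log2 ratios were 0.38 for Mrc1, 0.26 for Stab1 and 0.87 for Pf4, all below the fold. Ccl8, a CC chemokine gene, was at 1.56 and 329 CPM (7.72), beside 34.9 in T cells without C1q of the dura mater, and in cells with 0 of these genes it was at 2.57 and lost its call.

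Interferon-stimulated genes were higher past the fold in the dura mater at S3 for 7 of 20 and lower for 0 (median 0.80). Il1rn, which encodes the interleukin-1 receptor antagonist, was at 16.1 CPM in the brain and 119.5 in the dura mater (log2 ratio 2.89, interval 2.35 to 3.48). Ccl3 was lower in the dura mater (2354 to 639 CPM, -1.88, -1.97 to -1.796). Saa3, Iigp1, Ccl24 and Mgp completed the largest ratios upward, with Saa3 in 2 members, and Hspb1, Bmp2, Fam71a, Cyr61 and P2ry10b downward. With none of the border genes Iigp1 (3.25) and Ccl24 (1.84) lost their calls, as did Iigp1, Ccl24, Bmp2 and Cyr61 without the 5% of members with most UMIs of each gene. Neutrophil genes were higher for 5 of 6, mast cell genes for 3 of 3 and fibroblast genes for 2 of 2, and their part in these ratios was not tested. MHC class II genes were higher for 0 and lower for 1 of 16 (median -0.13).

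At D3, 1237 of 10101 genes (12.2%) were higher in the dura mater and 242 (2.4%) lower, with a median of 0.24. Centred at that median, 768 were higher and 391 lower. Hypoxia and glycolysis genes were lower past the fold in the dura mater for 8 of 11 and higher for 0 (median -1.19), with Vegfa at 185 CPM in the brain and 14.9 in the dura mater (log2 ratio -3.64). Fn1 was at 537 and 40.7 CPM (-3.72, interval -3.97 to -3.48). Cell cycle genes were higher for 10 of 14 (median 2.11). Without the 5% of members with most UMIs of each gene, a setting that takes out cycling members by construction, they were higher for 2 of 6. Markers of other cells were higher as well: T cell genes for 5 of 6, B cell genes for 3 of 4, NK cell genes for 3 of 4, neutrophil genes for 5 of 6, mast cell genes for 4 of 5, dendritic cell genes for 5 of 8 and fibroblast genes for 2 of 2, with 0 lower, and their part in these ratios was not tested. Border macrophage genes were higher for 8 of 14 and lower for 1, Ednrb (median 1.51), and Mrc1 was at 144 CPM in the brain and 618 in the dura mater (2.11, 1.98 to 2.23). Ciita was the MHC class II gene past the fold (1.30, 1.11 to 1.49), of 15 with a median of 0.36. Cxcl9, Mgp, Gm16486, Lockd, Gm3336 and Ccnb2 had the largest ratios upward, with Cxcl9 in 12 members of the dura mater, and Ifnb1, Cxcl14, Timp1 and Igfbp6 downward with Fn1 and Vegfa. Without the 5% of members with most UMIs of each gene, Ifnb1 (-4.63 to -0.67), Ednrb (-1.21 to -0.90), Ccnb2 (4.21 to 0.74) and Lockd (4.35 to 1.33) lost their calls.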

How the data were processed

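The authors aligned the reads to mm10 with Cell Ranger 3.1.0 and deposited natural log (ln) values of counts scaled to 10000 per cell (Seurat 3.1.0). For their own study they removed doublets with Scrublet and cells with much mitochondrial RNA. The deposited values hold 18969 barcodes, of which 14586 passed the cell filter, so cells with much mitochondrial RNA or few or many genes remained in them. Whether doublets had been removed from them is not known here. UMI counts were recovered from these values (all whole within 1e-06). Cells were gated by thresholds on the ln values, and UMIs were summed per library and population. The gate, the comparison populations and the 32 gene lists were chosen with earlier results of these data known. Populations within libraries were compared with limma 3.58.1 (R 4.3.3) on log2(CPM + 1) with a library block, for genes with at least 100 UMIs, with Benjamini-Hochberg adjustment. Single libraries were compared by the ratio of CPM with exact Poisson intervals (scipy 1.17.1). Named genes were the rule and marker genes, list members, and up to 10 genes per direction with the largest called limma difference. The latter needed 50 CPM or more and the same sign in all 4 libraries. Also named were up to 10 (D3 against S3) or 6 (between tissues) with the largest ratios (60 UMIs or more, above the T cell level). Other genes named for their role were chosen after their values were seen. The scripts were tested on simulated data. Scrublet, run again through scanpy 1.11.5, marked at most 0.0634% of barcodes and was not relied on, so an alternative removed the highest scores (0.8% per 1000 barcodes). Other alternatives changed the gate, the filters, the depth and the library block. Some results are not reported here.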

Additional observations from a re-analysis of the deposited data

How the results depend on the processing

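Each count and share was recomputed with 1 choice changed at a time. With none of the 4 border genes detected, the shares of filtered cells were 2.69% in the brain at S3, 2.21% in the dura mater at S3, 5.19% in the brain at D3 and 3.67% in the dura mater at D3, and without cells with a Flt3 or Cd209a UMI they were 2.59%, 3.70%, 4.96% and 5.73%. Settings added after seeing the data gave 2.21%, 2.30%, 4.93% and 5.02% without cells with a Cd3e, Cd3d, Cd79a or Cd79b UMI, 5.83% and 9.61% in the dura mater at S3 and D3 without cells above 20000 CPM of neutrophil genes, and 4.11% in the brain at D3 with none of the infiltrating genes. In the brain at D3, H2-Aa at 3 or more gave 5.39% and no filter on cells 5.37%.

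At 2000 UMIs per cell 147 genes (dura mater, D3 against S3), 455 (brain, D3 against S3), 239 (tissues at S3) and 597 (tissues at D3) were past the fold, and with at least 100 UMIs 47, 404, 158 and 593, against 286, 1012, 575 and 1479. Of calls against Lyve1+ macrophages (2321), 755 were left at 2000 UMIs, 295 against those with H2-Aa at 2 or more, and 1381 to 1781 without 1 library (1422 without the brain at S3, 1381 without the dura mater at S3, 1519 without the dura mater at D3). Of calls against dendritic cells (2764), 1778 were left with no library block, 864 at 2000 UMIs and 1875 to 2596 without 1 library. The fewer UMIs or libraries of these settings were part of their construction.

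Log2 ratios of genes with few UMIs or few cells changed sign. For D3 against S3 in the dura mater, Cxcl14 was 0.37 without the 5% of members with most UMIs, and Saa3 was 2.68 with H2-Aa at 3 or more, 1.02 without the highest doublet scores and 1.52 without lineage UMIs. In the brain, Ebf1 and Iglc1 were 0.024 without lineage UMIs, Iglc1 0.23 without the highest doublet scores and Ednrb -0.68 at 2000 UMIs. Between tissues at S3, with no border genes Cd209d was -1.07, Cxcl9 -0.057 and Gas6 -0.085, Cd209d was -2.08 without Flt3 or Cd209a, Saa3 -0.26 with H2-Aa at 3 or more and Ube2c 0.30 at 2000 UMIs. At D3, Cd209d was -1.16 at 2000 UMIs and Ebf1 -0.84 without lineage UMIs. H2-DMb2 was -0.78 against Lyve1+ macrophages with H2-Aa at 2 or more. The cause was not tested. No paired analysis was possible because each condition had 1 library, and in the comparisons of cell populations the library was the block.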
